A study of Arabidopsis thaliana with 9 samples.

Results

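A set of 5 UDP-glycosyltransferase genes of phenylpropanoid metabolism, UGT72E1, UGT72E2, UGT72E3, UGT84A3 and UGT84A4, were followed in whole Arabidopsis thaliana plants grown with a dichlorobiphenyl, with its hydroxylated form, or with solvent alone. They were chosen by name, as every probe set paired with exactly 1 gene whose current symbol is UGT72E or UGT84A followed by a digit. The names themselves were picked with earlier results of these data known. This gave 5 probe sets for 5 genes, 3 of the UGT72E group and 2 of the UGT84A group, out of 16722 probe sets with 1 gene. UGT84A2 had no such probe set, and UGT84A1 was found only on 2 probe sets paired with several genes, so neither was analysed here. UGT84A3 and UGT84A4 (AT4G15490 and AT4G15500) lie next to each other on chromosome 4, directly after UGT84A1. UGT72E1 (AT3G50740) lies on chromosome 3, and UGT72E2 (AT5G66690) and UGT72E3 (AT5G26310) lie apart on chromosome 5.

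The phenylpropanoid pathway turns phenylalanine into hydroxycinnamic acids, which feed lignin, sinapate esters, coumarins and flavonoids. UDP-glycosyltransferases move a sugar, usually glucose, from a UDP-sugar to a small molecule, which makes it more soluble and allows storage in the vacuole. UGT72E2 and UGT72E3 are known to glucosylate the lignin precursors coniferyl and sinapyl alcohol, and UGT72E1 the matching aldehydes. The UGT84A enzymes form glucose esters of hydroxycinnamic acids such as sinapoyl glucose, the donor for the sinapate esters of leaves and seeds. Enzymes of this superfamily also attach sugars to foreign phenols.

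The study compared 3 groups of 3 arrays of 21-day-old plants, all grown in the same nutrient medium. In one group the medium held 2,5-dichlorobiphenyl (2,5-DCB), 50 mg in each L. In another it held 4'-hydroxy-2,5-dichlorobiphenyl (4'-OH-2,5-DCB), 5 mg in each L, and the control plants had only acetone, the carrier. The dose is thus not matched between the compounds, and the labels give neither an ecotype nor the plants or boxes behind each array. For this reason the p-values cover array-to-array spread alone, possibly technical, and their precision is limited by the number of arrays. In RNA from whole plants, fewer cells of a type and less RNA per cell cannot be told apart.

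Values are log2 signals as deposited, and a fold is 2 to the power of the log2 difference. Medians of the 9 arrays ranged over 4.69 to 4.91. One array stood apart, 4'-OH-2,5-DCB replicate 1: its signals had a narrower spread (SD 1.68, where the other 8 had at least 2.13) and a higher 25th percentile (3.72, where the other 8 had 2.80 to 3.01). Values without it are given where it turned a direction or changed a call of these genes. Differences were tested with limma over all 16722 probe sets, and a gene was called where its p, adjusted by Benjamini-Hochberg, was under 0.05. Under 2,5-DCB, 2 of the 5 genes were called higher than in the control and 0 lower, where 1.82% of all tested probe sets were called higher, 2.82% lower and 4.65% either way. Under 4'-OH-2,5-DCB, 2 of the 5 genes were called higher and 0 lower, where 1% of all tested probe sets were called higher, 1.9% lower and 2.91% either way. Dropping the array that stood apart left 2 of the 5 genes called higher under each compound, while the share of all tested probe sets called either way became 12.9% under 2,5-DCB and 7.16% with 4'-OH-2,5-DCB. Of the 16722, 990 and 571 were then called higher. Both comparisons share the control arrays. As the genes were chosen with earlier results of these data known, these counts are no test of the set.

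UGT72E2, the main coniferyl and sinapyl alcohol glucosyltransferase of the group, was higher under both compounds. Its log2 signal was 5.63, 6.10 and 6.38 on the 2,5-DCB arrays. It was 5.20, 6.21 and 5.59 on the 4'-OH-2,5-DCB arrays. The control arrays gave 4.49, 2.96 and 3.48, so that every exposed array lay above every control array, and the control arrays were themselves widely spread. The mean was 6.04 ± 0.38 under 2,5-DCB and 3.64 ± 0.78 in the control (SD, n = 3 each), a log2 difference of 2.39 (SE 0.40) or 5.24-fold, with a 95% interval of 2.80-fold to 9.81-fold and a limma adjusted p of 0.0128. With 4'-OH-2,5-DCB the mean was 5.67 ± 0.51 (SD, n = 3), a log2 difference of 2.02 (SE 0.40) from the control or 4.06-fold, with an interval of 2.17-fold to 7.60-fold and a limma adjusted p of 0.0318.

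The size of the UGT72E2 difference held up better than its call. With 1 array left out at a time, the log2 difference for 2,5-DCB lay between 2.05 and 2.82, and the limma adjusted p rose past the threshold, to 0.0585 and 0.0541 when control replicate 2 or 3 was dropped, and to 0.0639 and 0.0641 when 2,5-DCB replicate 2 or 3 was dropped. For 4'-OH-2,5-DCB it lay between 1.68 and 2.45, and the call was lost in 7 of 9 cases, with an adjusted p of up to 0.129. Among these, dropping a 2,5-DCB array, which is not in this comparison, left the difference at 2.02. The adjusted p was then 0.0505, 0.0636 and 0.0592 for 2,5-DCB replicates 1, 2 and 3. Of the 9, that call held when 4'-OH-2,5-DCB replicate 1 (log2 difference 2.26, adjusted p 0.0210) or control replicate 1 (2.45, adjusted p 0.0254) was dropped. The value of control replicate 2, 2.96, lay below that array's 25th percentile of 3.01, and the other control values lay above theirs, at 2.80 and 2.84 on control replicates 1 and 3. On this array, therefore, the signal may be background, and the fold is uncertain to that extent.

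UGT72E1, which glucosylates coniferyl and sinapyl aldehyde, did not pass under either compound. It had 7.86, 8.39 and 8.32 under 2,5-DCB, 7.44, 8.54 and 8.80 with 4'-OH-2,5-DCB, and 7.92, 7.64 and 8.09 in the control. The 3 groups overlap, and the lowest of the 9 values belongs to the array that stood apart. The log2 difference from the control was 0.31 (95% interval -0.44 to 1.05, limma adjusted p 0.824) for 2,5-DCB and 0.38 (-0.37 to 1.12, adjusted p 0.542) for 4'-OH-2,5-DCB. Without 4'-OH-2,5-DCB replicate 1 the difference for 4'-OH-2,5-DCB was 0.78, with an adjusted p of 0.0531, just outside the threshold.

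UGT72E3, the close relative of UGT72E2, gave dim values on 8 of the 9 arrays. It had 2.70, 2.55 and 2.55 under 2,5-DCB, 4.05, 2.56 and 2.06 with 4'-OH-2,5-DCB, and 2.33, 2.55 and 2.32 in the control. All but the value of 4.05, on 4'-OH-2,5-DCB replicate 1, lay below the 25th percentile of their array and may be background. The identical value 2.55078 on 2,5-DCB replicates 2 and 3 and control replicate 2 was shared there with other probe sets, making 46, 13 and 27 tested probe sets with it on those arrays. The log2 difference from the control was 0.20 (-0.74 to 1.14, limma adjusted p 0.948) for 2,5-DCB and 0.49 (-0.45 to 1.43, adjusted p 0.533) for 4'-OH-2,5-DCB. The second of these was -0.09 without 4'-OH-2,5-DCB replicate 1.

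**Figure D1:**
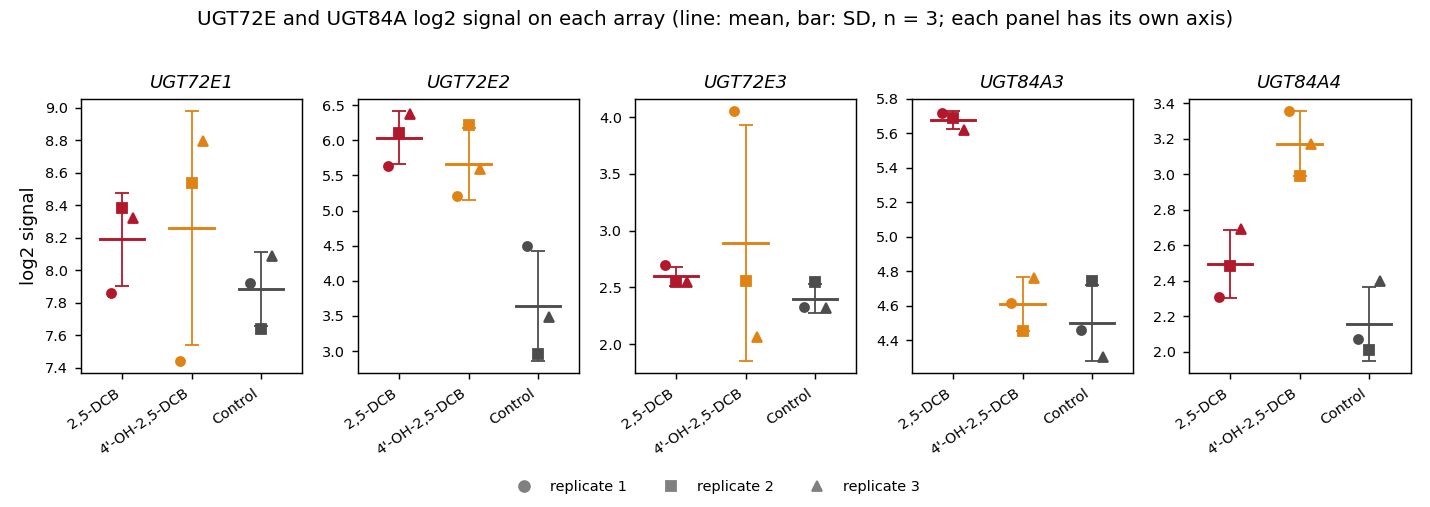
The log2 signal (vertical axis, 1 scale per panel) of each gene is plotted for every array, by group, with marker shape giving the replicate, a line for the mean and a bar for the SD (n = 3). UGT72E2 has all 6 exposed arrays at 5.20 or above and all controls at 4.49 or below, whereas UGT84A3 is highest on the 2,5-DCB arrays (5.62 to 5.72) and UGT84A4 on the 4'-OH-2,5-DCB arrays (2.99 to 3.35).

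The neighbouring genes UGT84A3 and UGT84A4, of hydroxycinnamate glucose ester formation, were called under different compounds. UGT84A3 had 5.72, 5.69 and 5.62 under 2,5-DCB, 4.61, 4.45 and 4.76 with 4'-OH-2,5-DCB, and 4.46, 4.74 and 4.30 in the control. The 2,5-DCB arrays lay close together and above the other 6, while the 4'-OH-2,5-DCB and control arrays overlapped. The mean was 5.68 ± 0.05 under 2,5-DCB and 4.50 ± 0.22 in the control (SD, n = 3 each), a log2 difference of 1.18 (SE 0.17) or 2.26-fold (95% interval 1.75-fold to 2.92-fold, limma adjusted p 0.00604). That call held with any 1 of the 9 arrays left out, with adjusted p-values of 0.00193 to 0.0376. For 4'-OH-2,5-DCB the log2 difference was 0.11, with a 95% interval of -0.26 to 0.48 and an adjusted p of 0.722.

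UGT84A4 had 2.31, 2.48 and 2.69 under 2,5-DCB, 3.35, 2.99 and 3.17 with 4'-OH-2,5-DCB, and 2.07, 2.01 and 2.40 in the control. The 4'-OH-2,5-DCB arrays lay above the other 6, and the 2,5-DCB and control arrays overlapped. The mean was 3.17 ± 0.18 with 4'-OH-2,5-DCB and 2.16 ± 0.21 in the control (SD, n = 3 each), a log2 difference of 1.01 (SE 0.18) or 2.02-fold (95% interval 1.52-fold to 2.67-fold, limma adjusted p 0.0223). For 2,5-DCB the log2 difference was 0.33 (-0.07 to 0.74, adjusted p 0.436). All control and 2,5-DCB values, and that of 4'-OH-2,5-DCB replicate 1, lay below the 25th percentile of their array and may be background, so the size of this difference is uncertain. The call was lost after quantile normalization (log2 difference 0.73, adjusted p 0.105), and without control replicate 1 (0.97, adjusted p 0.0864) or 2 (0.94, adjusted p 0.112). With 4'-OH-2,5-DCB replicate 1 dropped, the difference was 0.92, with an adjusted p of 0.0169.

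**Figure D2:**
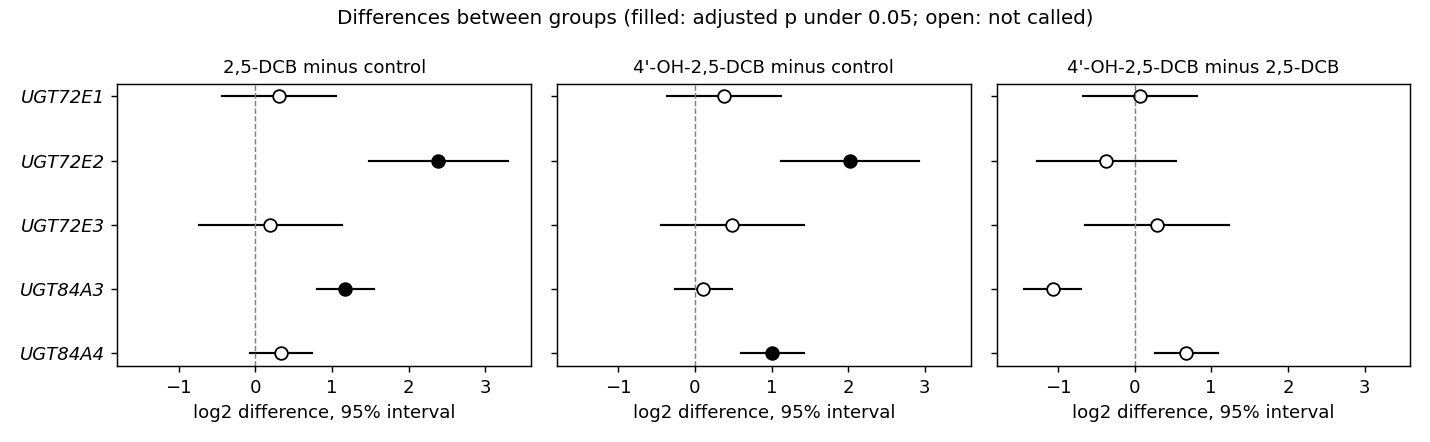
Each panel gives 1 comparison, with the log2 difference on the horizontal axis, a point per gene, its 95% interval as a line, and filled points for an adjusted p under 0.05. UGT72E2 is filled for both compounds against control, UGT84A3 for 2,5-DCB and UGT84A4 for 4'-OH-2,5-DCB, and no point is filled for 4'-OH-2,5-DCB minus 2,5-DCB.

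Set against each other, the compounds gave no called difference in these genes. In limma 0 of the 16722 probe sets passed in this comparison (0%), although 1656 had an unadjusted p under 0.05; with 4'-OH-2,5-DCB replicate 1 dropped, 0.377% passed. For UGT84A3 the log2 difference of 4'-OH-2,5-DCB from 2,5-DCB was -1.07 (95% interval -1.44 to -0.70), which missed the threshold with an adjusted p of 0.0763. Without 4'-OH-2,5-DCB replicate 1 that difference was again -1.07 and passed, with an adjusted p of 0.0403. UGT84A4 differed by 0.68 (0.27 to 1.08, adjusted p 0.249) and UGT72E2 by -0.37 (-1.27 to 0.54, adjusted p 0.691). The differences of UGT72E1 and UGT72E3 were 0.07 (-0.68 to 0.81) and 0.29 (-0.65 to 1.23), and the widths of these intervals leave room for changes of more than 1.5-fold either way. Dropping 4'-OH-2,5-DCB replicate 1 turned the difference of UGT72E3 to -0.29 and moved those of UGT72E1 to 0.48 and UGT72E2 to -0.14, none of them called. It is thus not shown that UGT84A3 responds to one compound alone, nor UGT84A4 to the other, and the doses differ.

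Under 2,5-DCB, 2 of the 5 genes had 3 exposed arrays all on one side of the 3 control arrays, as did 30.9% of all tested probe sets. Under 4'-OH-2,5-DCB it was again 2 of 5, against 22.6% of all, and between the compounds 2 of 5 (UGT84A3 and UGT84A4), against 15.2%. The median log2 difference of the 5 genes was 0.33 under 2,5-DCB and 0.49 with 4'-OH-2,5-DCB, beside 0.04 and 0.10 over all tested probe sets. The second median is the value of UGT72E3, and with 4'-OH-2,5-DCB replicate 1 dropped it was 0.78, beside 0.02 over all tested probe sets.

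Because 1 array had a narrower range, each gene was also placed by its rank among the tested probe sets of its own array. UGT72E2 stood at percentiles 62.5, 69.5 and 73.7 under 2,5-DCB, 56.1, 71.0 and 61.4 with 4'-OH-2,5-DCB, and 47.6, 24.2 and 34.4 in the control. Its exposed arrays all stay above the control arrays on this scale. So do the 2,5-DCB arrays of UGT84A3, at 63.9, 63.3 and 62.1 under 2,5-DCB against 47.2, 49.6 and 44.8 in the control. UGT84A4 stood at 17.2, 27.3 and 30.1 with 4'-OH-2,5-DCB and at 9.99, 5.04 and 16.4 in the control. Here 4'-OH-2,5-DCB replicate 1, highest of the 9 arrays by log2 signal, came within 1 percentile of control replicate 3 and fell below 2,5-DCB replicate 3, at 21.5. UGT72E3 stood at 32.5 on that array, against 7.66 to 20.9 on the other 8.

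**Figure D3:**
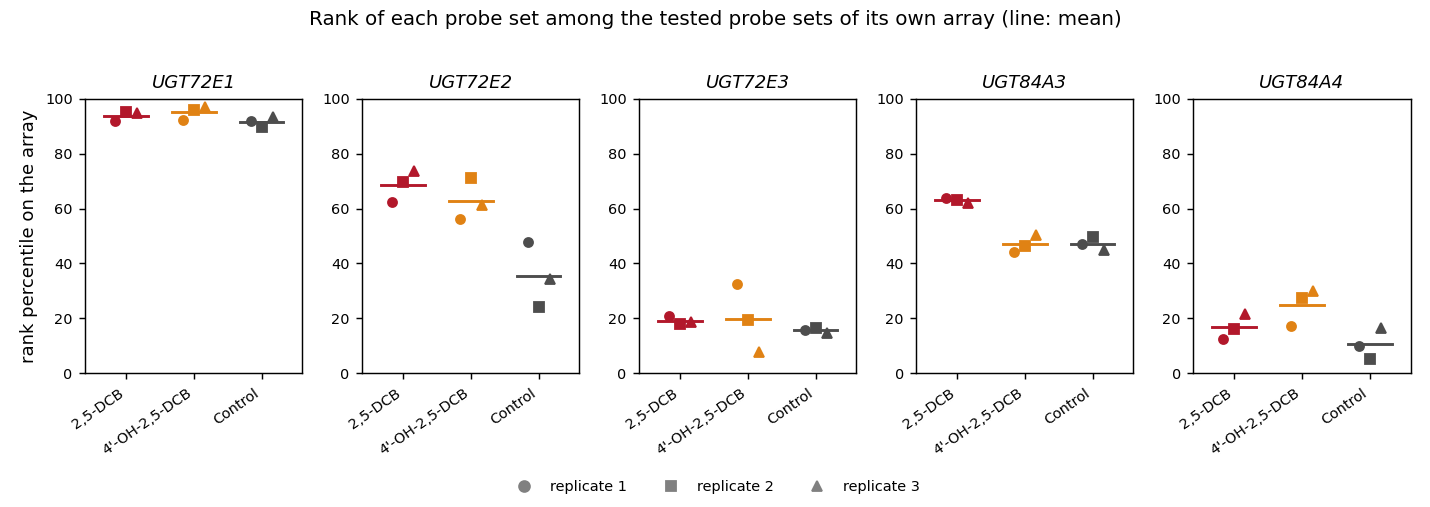
The rank percentile of each gene among the tested probe sets of its own array (vertical axis, 0 to 100) is plotted by group, with marker shape giving the replicate and a line for the mean. UGT72E2 under both compounds and UGT84A3 under 2,5-DCB lie above the control on every array, UGT84A3 with 4'-OH-2,5-DCB overlaps it, and UGT84A4 with 4'-OH-2,5-DCB spans 17.2 to 30.1 beside 5.04 to 16.4 in the control.

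By current symbol, the other members of families UGT72 and UGT84 with a probe set of their own were UGT72B3, UGT84B1 and UGT84B2, and none was called. UGT72B3 had a log2 difference of -0.41 (limma adjusted p 0.295) under 2,5-DCB and -0.09 with 4'-OH-2,5-DCB. UGT84B1, at 0.08 and 0.16, and UGT84B2, at 0.18 and 0.29, did not pass either. UGT84B1 had log2 signals of 1.35 to 1.91, below the 25th percentile of each array, and may be background. UGT84B2 was also dim, at rank percentiles of 20.6 to 32.9. Beside the 5 members, 46 tested genes, on 51 probe sets, had a symbol of UGT, a number, a letter and a number. Genes of this superfamily under another symbol, such as UF3GT (UGT79B1), were not counted. Of the 51 probe sets, 4 were called higher and 0 lower under 2,5-DCB, and 3 higher and 0 lower under 4'-OH-2,5-DCB. Of all tested probe sets, 1.82% and 1% were called higher in these comparisons. With 4'-OH-2,5-DCB replicate 1 dropped, 7 and 4 of the 46 genes were higher and 0 lower. Of all 16722 tested probe sets, 990 and 571 were then called higher, and 12.9% and 7.16% either way. UGT76B1, which glucosylates salicylate and related defence compounds and is the one called of 4 genes tested from a list of salicylate and benzoate glucosyltransferases, is among those called with all 9 arrays, with log2 differences of 1.90 (adjusted p 0.00175) and 0.90 (adjusted p 0.0370). The second of these calls was lost in 8 of 9 cases with 1 array left out (adjusted p up to 0.139), all but that without 4'-OH-2,5-DCB replicate 1.

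The rest of the pathway was read from 9 lists, from the shikimate pathway and UDP-glucose supply to lignin, sinapate esters, coumarins, flavonoids and their regulators. Of 141 listed genes, 32 besides the 5 members had a probe set of their own. None of these was one of the 9 genes of the general pathway, the 28 regulators or the 12 genes of UDP-glucose supply, so nothing is said of these. Under 2,5-DCB 5 of the 32 genes were called higher and 0 lower, and under 4'-OH-2,5-DCB 4 were higher and 0 lower. Of all tested probe sets, 1.82% and 1% were called higher and 2.82% and 1.9% lower in these comparisons. The counts of single lists below stand beside the same shares. The lists, like the members, were chosen with earlier results of these data known. The median log2 difference was 0.10 and 0.18 over their 35 probe sets, beside 0.04 and 0.10 over all tested probe sets. With 4'-OH-2,5-DCB replicate 1 dropped, 7 genes were higher and 1 lower under 2,5-DCB, and 5 higher and 0 lower under 4'-OH-2,5-DCB, where the median was 0.14 beside 0.02. In that setting the share of all tested probe sets called either way also rose, to 12.9% under 2,5-DCB and 7.16% with 4'-OH-2,5-DCB. There 990 and 571 of the 16722 were called higher, and 1171 and 626 lower.

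In the list of monolignol glucosides, export and polymerisation, 2 of 8 genes besides the UGT72E members were called higher under 2,5-DCB and 0 with 4'-OH-2,5-DCB. The peroxidase gene PRX52, linked to lignin formation, had 6.57, 6.0 and 6.06 under 2,5-DCB and 4.54, 4.36 and 4.39 in the control, a log2 difference of 1.78 (limma adjusted p 0.0109, and 0.0598 without control replicate 2). PRX52 with 4'-OH-2,5-DCB differed by 0.85 (adjusted p 0.173). BGLU45, a beta-glucosidase that releases monolignols from their glucosides and so runs against the UGT72E reaction, had 5.22, 4.17 and 4.50 under 2,5-DCB and 3.41, 2.88 and 3.45 in the control. BGLU45 on control replicate 2 and on 4'-OH-2,5-DCB replicates 1 and 2 lay below the array's 25th percentile and may be background. Its log2 difference was 1.38 with an adjusted p of 0.0480, a call lost in 7 of 9 cases with 1 array left out (adjusted p up to 0.200; it held without 4'-OH-2,5-DCB replicate 1 or 2), and -0.37 (adjusted p 0.545) under 4'-OH-2,5-DCB. Of its relatives, BGLU46 had 0.86 (adjusted p 0.137) and 0.03 (adjusted p 0.958) under 2,5-DCB and 4'-OH-2,5-DCB. BGLU47 had -1.25 (adjusted p 0.0603, and 0.0173 or 0.0302 without 4'-OH-2,5-DCB replicate 1 or 3) and -0.76 (adjusted p 0.264), so the sign was not shared within this trio. BGLU47 on 2,5-DCB replicate 2 also lay below that array's 25th percentile.

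Upstream, none of 3 tested genes of the monolignol synthesis list was called. One of the 3, CYP84A4, was listed as F5H2, a name RefSeq does not give it. It was dim, at mean rank percentiles of 25.3 to 28.6. The gene of smallest p, the cinnamoyl-CoA reductase gene CCR2, had -0.13 under 2,5-DCB and 0.39 with 4'-OH-2,5-DCB (adjusted p 0.939 and 0.428). Beside the UGT84A genes, the sinapate ester list held 1 tested gene, ALDH2C4, which makes ferulate and sinapate from their aldehydes. ALDH2C4 had 9.60, 10.05 and 10.39 under 2,5-DCB and 9.17, 9.11 and 9.18 in the control, a log2 difference of 0.86 that did not pass (adjusted p 0.105, and 0.0191 without 4'-OH-2,5-DCB replicate 1). ALDH2C4 with 4'-OH-2,5-DCB differed by 0.04 (adjusted p 0.943). In the shikimate list 1 of 3 genes was called, AT2G45300, at 0.87 under 2,5-DCB (adjusted p 0.0365, up to 0.141 and lost in 7 of 9 cases with 1 array left out, all but those without 4'-OH-2,5-DCB replicate 1 or 2). AT2G45300 with 4'-OH-2,5-DCB had 0.57 (adjusted p 0.178; it was 0.0319 when 4'-OH-2,5-DCB replicate 1 was dropped).

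In the coumarin list, 2 of 7 genes were called higher under 2,5-DCB and 3 with 4'-OH-2,5-DCB, all of them root beta-glucosidase genes whose products can hydrolyse the coumarin glucoside scopolin. BGLU21 had log2 differences of 1.68 and 2.42 (limma adjusted p 0.0340 and 0.0117), and BGLU22 of 1.13 and 1.79 (adjusted p 0.0438 and 0.00999), under 2,5-DCB and 4'-OH-2,5-DCB. With 1 array left out the 2,5-DCB call of BGLU21 was lost in 6 of 9 cases (adjusted p up to 0.148; it held without control replicate 1 or 4'-OH-2,5-DCB replicate 1 or 2) and that of BGLU22 in 7 (up to 0.164; it held without 4'-OH-2,5-DCB replicate 1 or 2). Their 4'-OH-2,5-DCB calls held in all 9. The remaining gene called with 4'-OH-2,5-DCB was PYK10, whose probe set also serves as a root marker below. In the flavonoid list, 0 of 10 genes were called under 2,5-DCB and 1 was higher under 4'-OH-2,5-DCB. This was DFR, of anthocyanin synthesis, at 0.96 (adjusted p 0.0441), a call lost in 7 of 9 cases (adjusted p up to 0.157; it held without 4'-OH-2,5-DCB replicate 1 or 2).

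**Figure D4:**
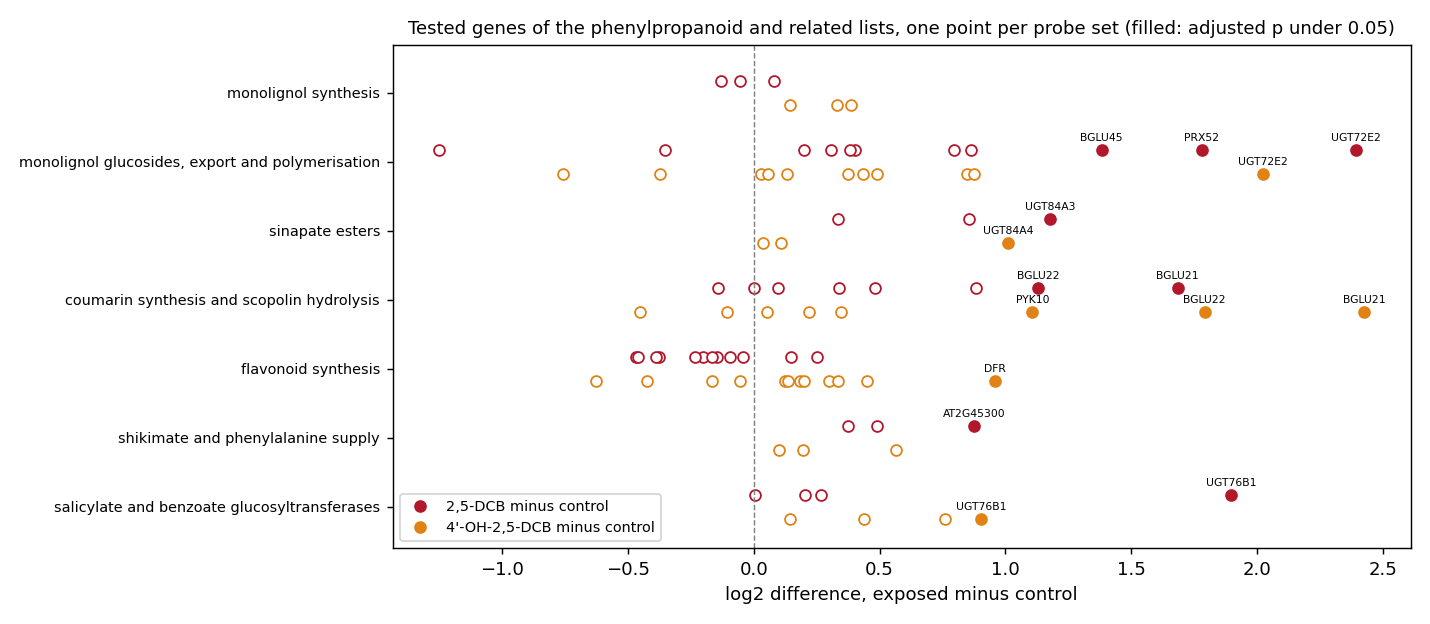
Each point is 1 tested probe set of a list, with its log2 difference from the control on the horizontal axis, 2,5-DCB in red above 4'-OH-2,5-DCB in orange, and filled points for an adjusted p under 0.05. The called points all lie right of 0, the farthest being BGLU21 with 4'-OH-2,5-DCB (2.42) and UGT72E2 under 2,5-DCB (2.39).

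UGT72E2 is known to be expressed mainly in roots, so marker genes of root and leaf were set beside it. Of 21 root markers 3 were tested, and their summed signal, on the log2 scale, was 11.2 to 11.7 under 2,5-DCB, 11.3 to 12.1 with 4'-OH-2,5-DCB and 10.3 to 10.8 in the control. Nearly all of that sum is PYK10, a beta-glucosidase of root and seedling endoplasmic reticulum bodies, which had 11.22, 11.44 and 11.74 under 2,5-DCB, 11.32, 12.10 and 11.67 with 4'-OH-2,5-DCB, and 10.64, 10.31 and 10.81 in the control. The log2 differences of PYK10, already counted in the coumarin list, were 0.88 (limma adjusted p 0.0770) and 1.11 (adjusted p 0.0438). With 1 array left out the second was lost in 8 of 9 cases, where the adjusted p reached 0.190. Both passed, at 0.0205 and 0.0130, when 4'-OH-2,5-DCB replicate 1 was dropped. The other root markers tested, the root hair expansin genes EXPA7 and EXPA18, were not called. Both were dim, at rank percentiles of 27.3 to 37.2 and 12.6 to 33.9 over the 9 arrays, so the lack of a call says little. Of 22 leaf markers 3 were tested, with a summed log2 signal of 11.6 to 11.8 under 2,5-DCB, 11.5 to 12.1 with 4'-OH-2,5-DCB and 12.1 to 12.2 in the control, and of these LHCB4.2 was called lower under 2,5-DCB, at -0.95 (adjusted p 0.0308, lost in 5 of 9 cases with 1 array left out, with values of up to 0.135; it held without 2,5-DCB replicate 1 or any 4'-OH-2,5-DCB replicate). The single tested flower or seed marker, the storage protein gene PAP85, was higher under 2,5-DCB, at 1.71 (adjusted p 0.0199, lost in 5 of 9 cases, up to 0.0909; it held without 2,5-DCB replicate 2 or any 4'-OH-2,5-DCB replicate), and had -0.43 with 4'-OH-2,5-DCB. On 4'-OH-2,5-DCB replicates 1 and 3 PAP85 lay below the array's 25th percentile and may be background. PYK10, like UGT72E2, was thus higher on every exposed array than on any control array, and the part of root RNA in the UGT72E2 difference was not tested.

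Likeness of pattern was measured as Pearson r with each gene over the 9 arrays, as a description, since the points share arrays, groups and normalization. The 5 tested genes most like UGT72E2 were AT4G13180 (r 0.986), AT5G40690 (0.979), AT2G21850 (0.975), the mitochondrial gene nad1 (0.971) and AT4G35380 (0.968). Over the 8 arrays other than 4'-OH-2,5-DCB replicate 1 their r lay between 0.968 and 0.991. For UGT84A3 they were AT5G51830 (r 0.970), AT3G56840, AT4G35500, AT4G26990 and AT3G04970 (0.947). For UGT84A4 they were AT2G27535 (r 0.974), AT1G65985, AT1G62150, XTH33 and AT2G31600 (0.955). No gene of the phenylpropanoid lists is among these. Besides the members, only 35 probe sets of those lists were among the 16722 tested, so that absence says little. The 5 most like UGT72E3, led by AT1G72290 (r 0.995), had lower r over the other 8 arrays, from 0.919 to 0.978. Those most like UGT72E1 were AT3G20395 (r 0.957), AT3G60440, AT1G78460, AT5G40830 and AT5G06800 (0.938). Over the other 8 arrays their r lay between 0.921 and 0.947. The r of UGT72E1 with UGT84A4 was 0.295 over 9 arrays and 0.949 over those 8. All other pairs of members had an r of -0.47 to 0.67 over the 8. Nothing on shared function or control is drawn from these values.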

How the data were processed

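The authors deposited a table of log2 signals, with probe sets in rows, and the submitters' processing notes name Affymetrix Expression Console. Its version, summarization and background correction, and the genome build, were not given in the sources used, so no coordinates are printed. Of 38408 probe sets, 16722 were paired with 1 gene in the platform annotation, and symbols were updated by gene ID from RefSeq (TAIR10.1; 16574 matched).

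All 9 arrays were fitted with limma 3.58.1 (R 4.3.3), 1 term per group, without further normalization, and p-values were adjusted over the 16722 probe sets. All members were named, and of each list the called genes or, with none called, that of smallest p; BGLU46 and BGLU47 were named after their values were seen. Members and lists were chosen with earlier results of these data known. Alternatives were normalizations, filters on dim probe sets, other probe sets or arrays in the fit, trend and robust options, array weights, the replicate number as a block, and each array left out. The rank scale and quantile normalization without 4'-OH-2,5-DCB replicate 1 were chosen after seeing the data. Close paralogs such as UGT72E2 and UGT72E3 may share probe signal, which was not tested. The 25th percentile of each array served as a guide to dim signal.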

Additional observations from a re-analysis of the deposited data

How the results depend on the processing

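UGT84A3 under 2,5-DCB kept its call in every alternative, at log2 differences of 1.08 to 1.3. UGT72E2 under 2,5-DCB kept its call in all alternatives with 9 arrays (2.32 to 2.40) and ranged from 2.05 to 2.82 with 1 array left out. Its 4'-OH-2,5-DCB call (1.68 to 2.45 with 1 array left out) was lost with only the 6 arrays compared (2.02, adjusted p 0.116). That of UGT84A4 (0.92 to 1.13) was lost there too (1.01, adjusted p 0.0865) and after quantile normalization (0.73, adjusted p 0.105), and the filters on dim probe sets removed UGT84A4 and UGT72E3. UGT84A3 under 4'-OH-2,5-DCB minus 2,5-DCB (-1.15 to -0.99 with 1 array left out) passed with either filter (-1.07, adjusted p 0.0493 and 0.0289), with array weights (-1.09, adjusted p 0.00940) and after quantile normalization without 4'-OH-2,5-DCB replicate 1 (-1.08, adjusted p 0.0361). UGT72E1 under 4'-OH-2,5-DCB passed with array weights (0.72, adjusted p 0.0380) and with that last setting (0.83, adjusted p 0.0421). After quantile normalization BGLU47 (-1.22, adjusted p 0.0230) and ALDH2C4 (0.93, adjusted p 0.0227) also passed under 2,5-DCB.

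Several uncalled differences changed sign. UGT84A3 under 4'-OH-2,5-DCB was -0.017 after quantile normalization. UGT72E1 between the compounds was -0.0040 with median centring and -0.20 to 0.48 with 1 array left out. UGT72E3 under 4'-OH-2,5-DCB was -0.010 with array weights, -0.092 with quantile normalization without 4'-OH-2,5-DCB replicate 1, and -0.091 to 0.91 with 1 array left out, and between the compounds -0.22, -0.25 and -0.29 to 0.71. After quantile normalization UGT84B1 was -0.0039 under 2,5-DCB (-0.0020 also without 4'-OH-2,5-DCB replicate 1) and -0.015 under 4'-OH-2,5-DCB, where BGLU46 was -0.19 and UGT72B3 0.0046. With median centring ALDH2C4 was -0.034 and BGLU46 -0.041 under 4'-OH-2,5-DCB. With 1 array left out, ALDH2C4 (-0.11 to 0.28), BGLU46 (-0.23 to 0.19) and UGT72B3 (-0.23 to 0.0018) under 4'-OH-2,5-DCB, and UGT84B1 (-0.021 to 0.25) and UGT84B2 (-0.0030 to 0.42) under 2,5-DCB also crossed 0. The causes were not tested.

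Replicate numbers gave no sign of pairing. Deviations from the group mean correlated at -0.25 to 0.07 for same-numbered arrays and at -0.21 to 0.26 for the others. In 4 of 18 cases an array's best match in another group had its number. With 3 arrays a group this check cannot exclude a pairing. With the replicate number as a block, UGT72E2 and UGT84A4 lost their 4'-OH-2,5-DCB calls (2.02, adjusted p 0.0858, and 1.01, adjusted p 0.0510), and 397, 238 and 0 probe sets were called in the 3 comparisons.

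Probe sets called under 2,5-DCB numbered 777, and 1317 with all probe sets, 1725 with the 6 arrays compared, 2450 with array weights, 2267 after quantile normalization without 4'-OH-2,5-DCB replicate 1, and 181 to 2161 with 1 array left out. Under 4'-OH-2,5-DCB they numbered 486, and 758 after quantile normalization (1213 also without that array), 1204 with all probe sets, 98 with 6 arrays, 1827 with array weights, and 93 to 1197 with 1 array left out. Between the compounds there were 0, and 10 after quantile normalization (78 also without that array), 21 and 17 with the filters, 9 with trend and robust options, 349 with array weights, and 0 to 63 with 1 array left out.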
